A study of Mus musculus with 75 samples.

Results

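Cell cycle drivers and inhibitors are described here as a fixed set of 40 genes, chosen by name as rows of the raw count table. They were followed in all 75 single cells of the series, and the question put to them was whether conversion of supporting cells (SCs) into hair cells (HCs) shows any sign of division, and which inhibitors change. The set held 12 mitotic genes, 9 genes of S phase entry and replication licensing, 6 G1 cyclins and cyclin-dependent kinases (CDKs), 7 CDK inhibitors, and 6 pocket proteins and E2F factors, of 55291 genes in the table. A filter on low counts left 11443 genes for testing across groups, and 20 of the 40 members passed it. The other 20 are given below by the cells in which they were detected.

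The cells were picked by hand from dissociated mouse cochleae and amplified with a Smart-Seq kit. The 17 wild-type (WT) outer hair cells (OHCs) came at postnatal day 30 (P30) from Slc26a5 CreER/+; Ai9/+ mice given tamoxifen at P20 and P21. The 16 WT SCs, mainly pillar and Deiters cells, came at P60 from Fgfr3-iCreER+; Ai9/+ mice given tamoxifen at P30 and P31. The other 42 cells carried Tdtomato and were taken at P60 from Fgfr3-Atoh1-Ikzf2-DTR mice, in which Fgfr3-iCreER switches on Atoh1, and Ikzf2 joined to Tdtomato, from CAG-driven cassettes after tamoxifen at P30 and P31. In the same mice the endogenous OHCs, which carry the diphtheria toxin receptor at one Slc26a5 allele, were killed with 20 ng/g diphtheria toxin at P36. The authors sorted these 42 cells by Myo7a and Slc26a5 (Prestin) as 11 OHC-like cells, 16 nascent HCs and a last group of 15 cells, SCs that failed to become HCs (failing SCs below), so these 2 genes define the groups and are no result. WT_P30 OHCs thus differ from the other groups in age as well as in cell type. Both WT groups carried a CreER driver and the Ai9 reporter, but lacked the Atoh1 and Ikzf2 cassettes, the toxin receptor, the damage and the toxin. How many mice stand behind each group is not given in the sources used here, so the p-values measure the spread between cells.

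Total counts on genes ranged from 4264780 to 22934062 per cell. The median number of genes detected was 4777 in WT_P30 OHCs, 6873 in WT_P60 SCs, 8488 in OHC-like cells, 8067 in nascent HCs and 6977 in failing SCs. Each WT group was assigned a library run of its own, under a label that only repeats the group. Run and group therefore cannot be told apart in any comparison with a WT group. The 42 cells were spread over 5 runs. These runs are as assigned to the cells for this report. The sample titles and the study's text do not name them, so which batch they stand for is not given there. None of the 5 OHC markers (Ocm, Slc26a5, Myo7a, Tmc1, Espn) reached 1 CPM (a count scaled to a library of fixed size) in any WT_P60 SC, and no WT_P30 OHC had Sox2, Sox10 or Gjb6 at that level, although 3 of 17 held Bace2 or Fgfr3, with a highest sum over the SC markers of 160 CPM. Atoh1, the induced factor, lay between 384 and 27058 CPM in the 42 cells and at most at 20.9 CPM in WT cells. Of 5 SC markers (Sox2, Sox10, Bace2, Gjb6, Fgfr3), 4 were detected in OHC-like cells, where all 11 cells held at least 1 of them. In 4 cells (OHC-like cell 4, nascent HC 13 and failing SCs 2 and 4) a few genes took an unusually large part of the counts. Calls of members were recomputed without these 4 cells, and those counts are given with the other alternatives. Hemoglobin genes reached a sum of 2278 CPM in 1 OHC-like cell, the endothelial marker list (Cldn5, Pecam1, Kdr) was detected in 9 of 16 WT_P60 SCs with a highest sum of 298 CPM, and macrophage markers were not detected in WT_P60 SCs, OHC-like cells and nascent HCs. They were detected in 3 of 17 WT_P30 OHCs, with a highest sum of 90.5 CPM, and in 1 of 15 failing SCs, at 13.2 CPM. The neuron list (Snap25, Tubb3, Nefl) was detected in 16 of 17 WT_P30 OHCs, 4 of 16 WT_P60 SCs, 9 of 11 OHC-like cells, 12 of 16 nascent HCs and 6 of 15 failing SCs, with median sums of 192, 0, 148, 222 and 0.51 CPM. The fibroblast list (Col1a1, Col3a1, Pdgfra) was detected in 15 of 17 WT_P30 OHCs, with a median sum of 172 CPM, and in 1 of 16 WT_P60 SCs. The part of these signals in the results below was not tested.

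As background, a cell leaves quiescence when D cyclins with Cdk4 or Cdk6 phosphorylate the pocket proteins Rb1, Rbl1 and Rbl2, which frees E2F factors to switch on cyclin E, the Mcm helicase and other replication genes. Cyclins A and B with Cdk1 then drive mitosis. Members of the Cip/Kip family (Cdkn1a, Cdkn1b, Cdkn1c) bind cyclin-CDK complexes broadly, and members of the Ink4 family (Cdkn2a to Cdkn2d) bind Cdk4 and Cdk6. In the mammalian organ of Corti, hair cells and supporting cells are postmitotic from before birth, and Cdkn1b is known for holding supporting cells out of the cycle.

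The 3 Cip/Kip inhibitors behaved differently across the groups, and their shared sequence is shown because it lies in the region with which the family binds cyclin-CDK complexes, and because related genes can share reads. A search of the coding sequences of GENCODE M21 transcripts found the 60-base stretch most alike in all 3, printed 5′ to 3′ on the coding strand, with capitals at the bases identical in all 3 genes.
Cdkn1a: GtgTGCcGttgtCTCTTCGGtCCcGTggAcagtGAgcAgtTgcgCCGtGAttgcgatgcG
Cdkn1b: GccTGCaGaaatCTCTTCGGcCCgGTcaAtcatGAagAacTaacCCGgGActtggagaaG
Cdkn1c: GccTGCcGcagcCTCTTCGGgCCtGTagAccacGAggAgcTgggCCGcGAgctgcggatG
These lie within one coding exon each on GRCm38, at chr17:29098453-29098512 (plus strand) for Cdkn1a, chr6:134921001-134921060 (plus strand) for Cdkn1b and chr7:143460558-143460617 (minus strand) for Cdkn1c. Even here only 28 of 60 bases were identical in all 3, and the longest run shared by any pair of whole coding sequences was 11 bases, between Cdkn1b and Cdkn1c.

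A gene was taken as detected at 1 CPM or more. Of the 12 drivers of mitosis, 9 were detected in 0 to 3 cells of each group. The exceptions were Aurka, in 6 of 16 nascent HCs, Plk1, in 5 of 17 WT_P30 OHCs, and Cdc20, in 7 of 16 WT_P60 SCs. Mki67, a nuclear protein of cycling cells, was detected in 1 of 75 cells, OHC-like cell 2, at 3.97 CPM (30 counts). It was at 0 in all 17 WT_P30 OHCs, 16 WT_P60 SCs, 16 nascent HCs and 15 failing SCs. With so few cells, the exact (Clopper-Pearson) 95% interval still allowed a share of up to 20.6% of nascent HCs and of 0.23% to 41.3% of OHC-like cells, and such intervals cover counting error only.

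Top2a, the topoisomerase that untangles replicated chromosomes, was detected in 1 WT_P60 SC at 7.55 CPM and 1 nascent HC at 73.4 CPM. Cdk1, the mitotic kinase, was detected in 1 WT_P60 SC at 1.77 CPM and 1 OHC-like cell at 3.12 CPM. Ccnb1, its cyclin partner, was found in 3 of 16 nascent HCs, at up to 37.4 CPM, in 1 of 11 OHC-like cells at 8.66 CPM, and in no cell of either WT group. None of these genes had enough counts to be tested across groups.

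Of the remaining mitotic members, Bub1, a spindle checkpoint kinase, had no count in any cell. Ccna2 was detected in 0 to 2 cells of a group, Aurkb in 0 to 2, Birc5 in 0 to 3 and Ccnb2 in 0 to 3. Aurka, a centrosome kinase and the one mitotic member that passed the filter, was detected in 6 of 16 nascent HCs, 3 of 11 OHC-like cells, 2 of 15 failing SCs and 1 cell of each WT group. Its log2 fold change in nascent HCs against WT_P60 SCs was 3.43 (SE 1.89, adjusted p = 0.307), and it was not called.

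Plk1 and Cdc20 were each detected in several cells of 1 WT group. Plk1, a polo-like kinase, was detected in 5 of 17 WT_P30 OHCs with a highest value of 359 CPM, and in 1 OHC-like cell and 1 nascent HC. Cdc20, an activator of the anaphase-promoting complex, was detected in 7 of 16 WT_P60 SCs with a highest value of 557 CPM, and in 0 of 17 WT_P30 OHCs. Its exons overlap those of Elovl1 on the opposite strand by 53 bases, and without a stated strand setting such reads cannot be told apart. The share of cells with Cdc20 differed between the WT groups at an unadjusted p of 0.00268 (2-sided Fisher's exact test, adjusted p = 0.0239), which missed the threshold of 0.001.

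Members of mitosis also rarely occurred together in a cell. At least 3 of the 12 were detected in 4 cells, all of them among the 42 with ectopic Atoh1 and Ikzf2: 1 of 11 OHC-like cells, 2 of 16 nascent HCs and 1 of 15 failing SCs. OHC-like cell 2 held 21.4 CPM of Ccna2, 7.54 CPM of Plk1 and 4.10 CPM of Aurkb beside its Mki67. That cell also had the most genes detected of the series, 9654, and held 2 of the 9 S phase members, Pcna and Mcm2. Nascent HC 11 held Ccnb1 (5.45 CPM), Ccnb2 (24.5 CPM) and Cdc20 (33.0 CPM), and nascent HC 12 held Ccna2 (9.78 CPM), Ccnb1 (37.4 CPM) and Aurka (42.9 CPM). Failing SC 12 held Ccnb2 (3.25 CPM), Cdc20 (39.9 CPM) and Birc5 (48.7 CPM).

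No cell reached 5 of the 12, and no cell of either WT group reached 3. Nascent HC 12 had the largest total count of the series, 22934062. When each cell was thinned to the smallest total of 4264780 counts, the numbers of cells with at least 3 remained 1, 2 and 1. At a limit of 10 CPM the count was 0 in all 5 groups, and with any count taken as detection it was 2 OHC-like cells, 4 nascent HCs, 1 failing SC and 1 WT_P60 SC.

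**Figure D1:**
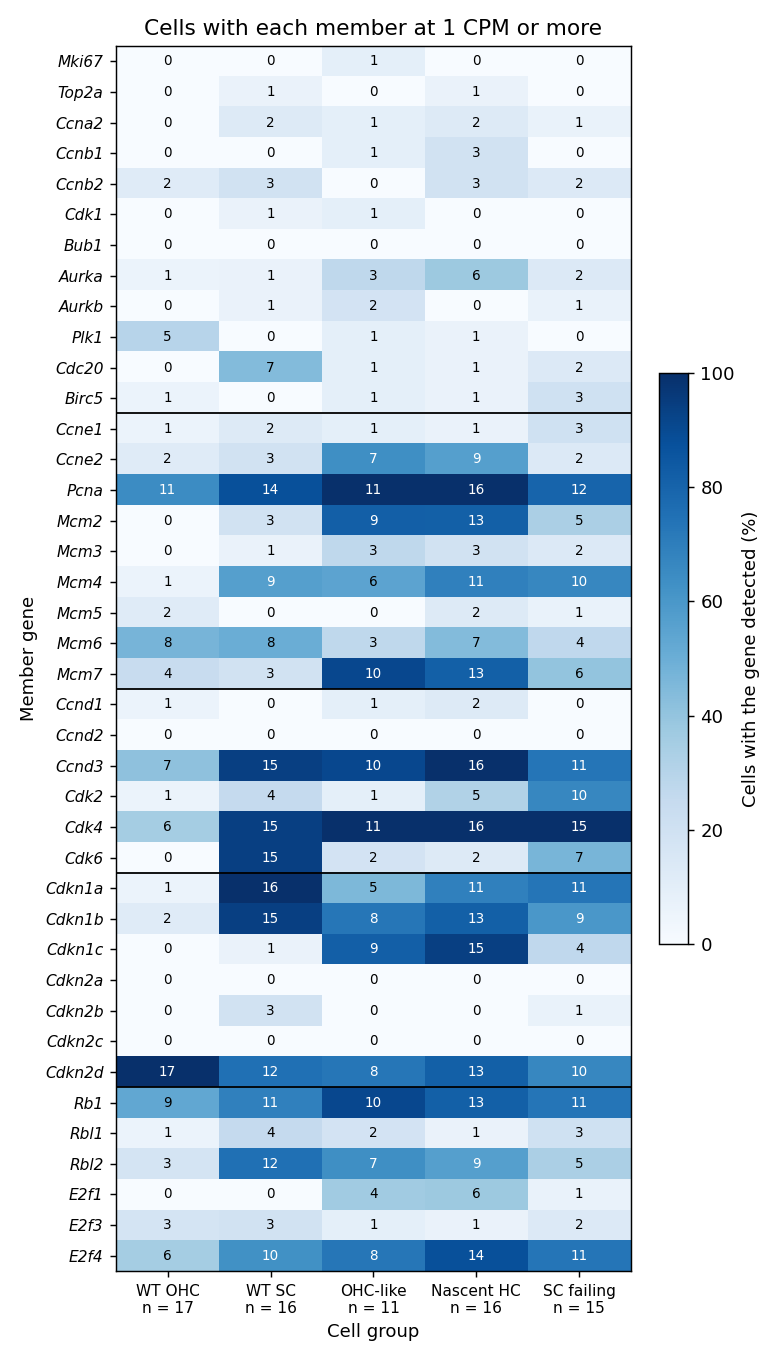
Number of cells (printed) and percent of cells (colour) in which each of the 40 members reached 1 CPM, by cell group; horizontal lines part the mitotic, S phase, G1, inhibitor, and pocket protein and E2F members. Most mitotic rows are pale, with Mki67 in 1 OHC-like cell, except for Cdc20 in WT_P60 SCs, Plk1 in WT_P30 OHCs and Aurka in OHC-like cells and nascent HCs, while Cdkn1c, Mcm2 and Mcm7 are dark in OHC-like cells and nascent HCs and Cdk6 and Cdkn1a are dark in WT_P60 SCs.

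Among the inhibitors, Cdkn1c (p57Kip2) stood out in the converting cells. In WT_P30 OHCs it had no count in any of 17 cells, and in WT_P60 SCs it was detected in 1 of 16 cells, at 8.85 CPM. In OHC-like cells it ranged from 0 through a median of 165 to 826 CPM and was detected in 9 of 11. In nascent HCs it ranged from 0.0842 through 185 to 2225 CPM and was detected in 15 of 16. In failing SCs the median was 0, and 4 of 15 cells held it, with a highest value of 185 CPM.

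OHC-like cells and nascent HCs were thus mostly above every WT cell, with a few overlapping, and failing SCs lay mostly with the WT cells. A gene was called with a log2 fold change beyond 2 and an adjusted p below 0.001 (edgeR quasi-likelihood test, Benjamini-Hochberg adjustment over all genes tested). Against WT_P60 SCs, Cdkn1c was called higher in OHC-like cells, with a log2 fold change of 8.77 (SE 1.66, adjusted p = 5.71e-05), and in nascent HCs, with 9.43 (SE 1.68, adjusted p = 1.94e-05). In failing SCs its log2 fold change was 4.62 (SE 1.37, adjusted p = 0.0156), which was not called. Because no WT_P30 OHC had a count, the level in OHC-like cells is given as at least 562-fold higher than in WT_P30 OHCs, against a floor of 3 counts per library, and it was called there too (adjusted p = 1.08e-07).

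The share of cells with Cdkn1c differed between nascent HCs and WT_P60 SCs (2-sided Fisher's exact test, adjusted p = 0.000103), where 1.71% of all genes were called by that test, and between OHC-like cells and WT_P30 OHCs (exact test, adjusted p = 0.00054), where 1.62% were called. Between OHC-like cells and WT_P60 SCs it missed the threshold, at an exact adjusted p of 0.00458, in a comparison where that test called 0 members and 1.36% of all genes. Cdkn1c was called in 8 of 8 alternatives that gave it a value in each of the 3 comparisons where it was called. Between the converted and the failing cells of the same mice, Cdkn1c was 4.81 higher on the log2 scale in nascent HCs (SE 1.41, adjusted p = 0.0273) and 4.16 higher in OHC-like cells (SE 1.41, adjusted p = 0.0759), and neither was called.

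Library run moved with that last comparison. Of the 15 failing SCs, 10 came from run C, which held 1 nascent HC and no OHC-like cell. In a fit of the 42 cells with run as a covariate, the log2 fold change of nascent HCs against failing SCs was 3.49 with an adjusted p of 0.782, against 4.71 and 0.0343 in a fit of the same cells without run. Within runs, Cdkn1c was detected in 1 of 1 nascent HC of run A, 6 of 6 of run B, 1 of 1 of run C, 3 of 4 of run D and 4 of 4 of run E. Among failing SCs it was detected in 1 of 4 of run A, 2 of 10 of run C and 1 of 1 of run E. Exons of Cdkn1c overlap those of Gm44732 on the opposite strand by 625 of 2039 bases, and whether the counting used strand is not stated.

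Cdkn1a (p21), the inhibitor that p53 induces, was high in every WT_P60 SC, from 104 through a median of 414 to 1188 CPM. In WT_P30 OHCs 16 of 17 cells had no count and 1 held 46.9 CPM, so these groups did not overlap. The log2 fold change of WT_P30 OHCs against WT_P60 SCs was -7.50 (SE 1.51, adjusted p = 4.74e-05), and it was called lower. Exons of Cdkn1a overlap those of AC167363.2 on the opposite strand by 273 of 3553 bases.

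In OHC-like cells Cdkn1a ranged from 0 through 0.226 to 242 CPM and was detected in 5 of 11, with a log2 fold change of -3.36 against WT_P60 SCs (SE 1.49, adjusted p = 0.15), which was not called. Nascent HCs spread from 0 through 242 to 2162 CPM, and failing SCs from 0 through 189 to 1899 CPM, both with 11 cells detected and both reaching above the highest WT_P60 SC. Within nascent HCs the level moved with the library run, since 4 of 4 cells of run E lay between 304 and 2162 CPM while 1 of 4 cells of run D was detected. The part of run in these values was not tested for Cdkn1a.

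Cdkn1b (p27Kip1) was detected in 15 of 16 WT_P60 SCs, with a median of 50.4 and a highest value of 153 CPM. The medians in OHC-like cells, nascent HCs and failing SCs were 1.58, 1.65 and 1.62 CPM, and the highest cells reached 46.5, 36.4 and 41.1 CPM. All 3 groups overlapped the WT_P60 SCs. The log2 fold changes against WT_P60 SCs were -2.69 (SE 1.45, adjusted p = 0.294), -3.33 (SE 1.28, adjusted p = 0.0749) and -2.98 (SE 1.30, adjusted p = 0.174), and none was called.

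In WT_P30 OHCs, Cdkn1b was detected in 2 of 17 cells, with a log2 fold change of -4.11 against WT_P60 SCs (SE 1.30, adjusted p = 0.0108). The edgeR test did not call it, while the share of cells with the gene did differ (2-sided Fisher's exact test, adjusted p = 7.32e-05, where 4.32% of all genes were called by that test). DESeq2 also called this difference.

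Cdkn2d (p19Ink4d), an inhibitor known in postmitotic hair cells, had the opposite order. It was detected in 17 of 17 WT_P30 OHCs, from 106 through 324 to 720 CPM, and in 12 of 16 WT_P60 SCs, from 0 through 52.0 to 104 CPM. These WT groups did not overlap, yet the log2 fold change of 3.03 (SE 0.95, adjusted p = 0.0104) was not called at the threshold. OHC-like cells ran from 0 through 142 to 398 CPM, nascent HCs from 0 through 40.5 to 153 CPM and failing SCs from 0 through 55.3 to 190 CPM. All 3 overlapped the WT_P60 SCs, and OHC-like cells differed from them by 1.57 on the log2 scale (SE 0.98, adjusted p = 0.406).

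The other Ink4 members were close to absent. Cdkn2a and Cdkn2c had no count in any cell, and Cdkn2b was detected in 3 of 16 WT_P60 SCs, with a highest value of 60.9 CPM, and in 1 failing SC at 17.6 CPM.

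**Figure D2:**
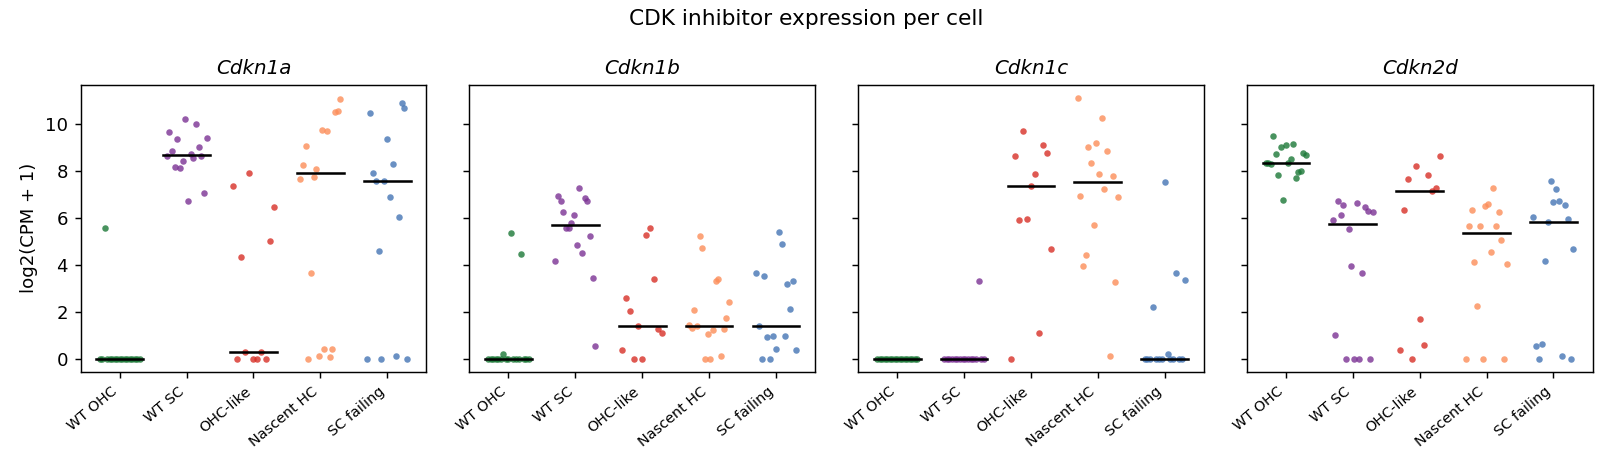
CDK inhibitor expression as log2(CPM + 1), 1 point per cell and a black line at the group median, for the 4 inhibitors that could be tested. Cdkn1c is at or near 0 in both WT groups and at medians of 165 and 185 CPM in OHC-like cells and nascent HCs, while Cdkn1b is highest in WT_P60 SCs and Cdkn2d in WT_P30 OHCs.

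In all, 2 of the 20 tested members, Cdkn1c and E2f1, were called in OHC-like cells against WT_P60 SCs, both higher, where 6.42% of all genes tested were called and 5.77% were called higher. The same 2 were called higher in nascent HCs against WT_P60 SCs, where 7.77% of all genes were called and 6.31% were called higher. E2f1 had no count in either WT group, and Cdkn1c was detected in 1 of 16 WT_P60 SCs and in no WT_P30 OHC. Both thus passed the filter through the cells with ectopic Atoh1 and Ikzf2, where they are high. In a fit of only OHC-like cells and WT_P60 SCs, neither passed it. In failing SCs against WT_P60 SCs, edgeR called 0 members, where 4.17% of all genes were called. There 3 members had an unadjusted p under 0.05, as did 17.1% of all genes. These comparisons share the WT_P60 SCs as controls, so they are not independent of each other.

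The median log2 fold change of the tested members was 0.54 in OHC-like cells, 0.04 in nascent HCs and 0.26 in failing SCs, where the medians of all genes tested were 0.32, 0.34 and 0.25. In WT_P30 OHCs against WT_P60 SCs the median was -1.31 for members and -0.16 for all genes, and in OHC-like cells against WT_P30 OHCs it was 2.14 and 0.61, with 18 of 20 members and 64.8% of all genes above 0.

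**Figure D3:**
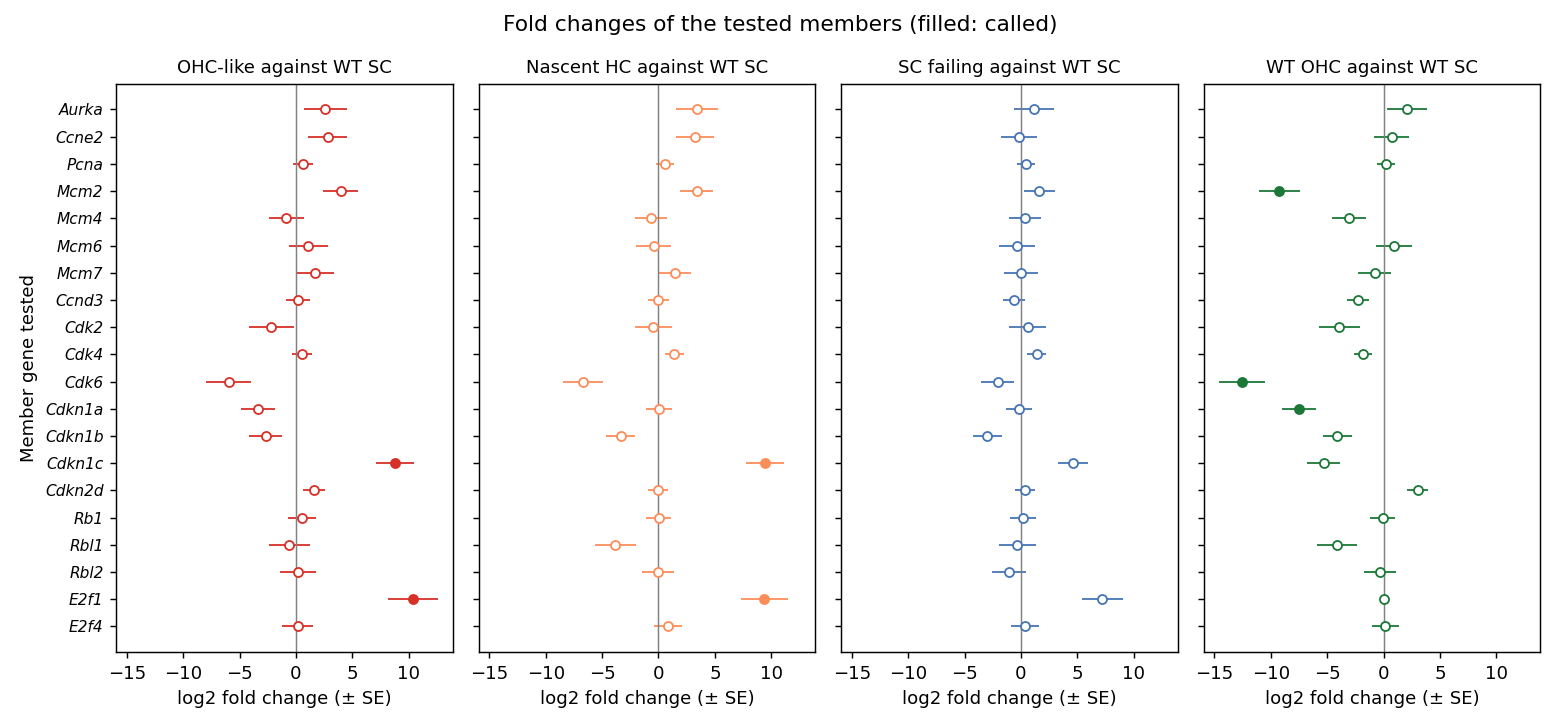
Log2 fold change with its standard error (bars) for the 20 tested members in OHC-like cells, nascent HCs, then failing SCs and WT_P30 OHCs, each against WT_P60 SCs; filled points passed an adjusted p of 0.001 and a log2 fold change of 2. Cdkn1c and E2f1 are filled on the right in OHC-like cells and nascent HCs, and Mcm2, Cdk6 and Cdkn1a on the left in WT_P30 OHCs; E2f1 sits at 0 with no bar there because neither group had a count.

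Among the G1 kinases, Cdk6 marked the WT_P60 SCs. It was detected in 15 of 16 of them, from 0 through 82.2 to 316 CPM, and had no count in any of 17 WT_P30 OHCs. Its level in WT_P60 SCs was at least 198-fold higher than in WT_P30 OHCs and was called (adjusted p = 1.25e-06). It was detected in 2 of 11 OHC-like cells, with a highest value of 9.17 CPM, in 2 of 16 nascent HCs, with a highest value of 11.3 CPM, and in 7 of 15 failing SCs, with a highest value of 159 CPM.

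Most OHC-like cells and nascent HCs lay below all but 1 of the WT_P60 SCs, and failing SCs spread over the range of both. Against WT_P60 SCs the log2 fold change was -5.97 in OHC-like cells (SE 1.99, adjusted p = 0.0318) and -6.70 in nascent HCs (SE 1.74, adjusted p = 0.00289), neither of which reached the threshold of 0.001. In nascent HCs, 4 of 8 alternatives did call it, and the share of cells with Cdk6 differed (2-sided Fisher's exact test, adjusted p = 0.000492). Exons of Cdk6 overlap those of Gm17590 on the opposite strand by 368 of 13989 bases.

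Cdk4, the related kinase, was present throughout the P60 cells. It was detected in 15 of 16 WT_P60 SCs, 11 of 11 OHC-like cells, 16 of 16 nascent HCs and 15 of 15 failing SCs, with medians of 109, 154, 225 and 221 CPM, and in 6 of 17 WT_P30 OHCs with a median of 0. It was called in none of the 8 comparisons. Exons of Cdk4 overlap those of Tspan31 on the opposite strand by 641 of 3249 bases. Per length, as TPM, the mean level of Cdk4 was 89.2 in WT_P60 SCs and 106 in OHC-like cells, and that of Cdk6 was 16.7 and 0.24.

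Of the D cyclins, the activating partners of these kinases, Ccnd3 was the one expressed widely. It was detected in 15 of 16 WT_P60 SCs, 10 of 11 OHC-like cells, 16 of 16 nascent HCs, 11 of 15 failing SCs and 7 of 17 WT_P30 OHCs, with medians of 170, 194, 177, 79.2 and 0 CPM. The ranges of all 5 groups overlapped. Ccnd2 had no count in any cell. Ccnd1 was detected in 1 WT_P30 OHC at 206 CPM, 1 OHC-like cell at 2.78 CPM and 2 nascent HCs, with a highest value of 4.18 CPM. Cdk2, the partner of cyclin E, was detected in 10 of 15 failing SCs, 5 of 16 nascent HCs, 4 of 16 WT_P60 SCs and 1 cell in each OHC and OHC-like group, and it was not called.

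Mcm2, a subunit of the Mcm helicase that licenses replication origins, had no count in any WT_P30 OHC and was detected in 3 of 16 WT_P60 SCs, with a highest value of 77.6 CPM. In OHC-like cells it ran from 0 through 66.1 to 417 CPM and was detected in 9 of 11. In nascent HCs it ran from 0 through 60.3 to 395 CPM and was detected in 13 of 16. In failing SCs it was detected in 5 of 15, with a median of 0 and a highest value of 190 CPM.

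The groups overlapped at the low end. Against WT_P30 OHCs, Mcm2 in OHC-like cells was at least 312-fold higher and was called there (adjusted p = 2.26e-06). Against WT_P60 SCs its log2 fold change was 3.97 in OHC-like cells (SE 1.57, adjusted p = 0.0904) and 3.38 in nascent HCs (SE 1.47, adjusted p = 0.141), and neither was called. It was called lower in WT_P30 OHCs than in WT_P60 SCs (adjusted p = 4.74e-05), a call that rested on the 3 WT_P60 SCs in which it was detected. That call was lost with the number of genes detected as a covariate (log2 fold change -5.63, adjusted p = 0.0232) and with the replicate block (-5.33, adjusted p = 0.00764). Mcm2 passed the filter through the cells with ectopic Atoh1 and Ikzf2, and it did not pass in a fit of only the WT groups. Among the failing SCs, all 5 cells with Mcm2 came from run C.

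Mcm7 was detected in 10 of 11 OHC-like cells, 13 of 16 nascent HCs, 6 of 15 failing SCs, 3 of 16 WT_P60 SCs and 4 of 17 WT_P30 OHCs. Its log2 fold change against WT_P60 SCs was 1.73 in OHC-like cells (SE 1.61, adjusted p = 0.679) and 1.42 in nascent HCs (SE 1.49, adjusted p = 0.726). Ccne2, a cyclin E, was detected in 7 of 11 OHC-like cells and 9 of 16 nascent HCs, and in 2 or 3 cells of each other group. Its log2 fold changes were 2.80 (SE 1.76, adjusted p = 0.417) and 3.24 (SE 1.71, adjusted p = 0.27), and it was not called. Exons of Mcm7 overlap those of Cops6 and Ap4m1 on the opposite strand by 385 of 4426 bases. Exons of Ccne2 overlap those of Ints8 on the opposite strand by 609 of 3495 bases.

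The remaining S phase members did not follow this pattern. Pcna, the sliding clamp, was detected in all OHC-like cells and nascent HCs, in 14 of 16 WT_P60 SCs and in 11 of 17 WT_P30 OHCs, with medians of 129, 136, 75.2 and 68.8 CPM. Mcm4 was detected in 9 of 16 WT_P60 SCs, 6 of 11 OHC-like cells, 11 of 16 nascent HCs and 10 of 15 failing SCs, and Mcm6 in 8 of 16, 3 of 11, 7 of 16 and 4 of 15. Mcm3, Mcm5 and Ccne1 were each detected in 0 to 3 cells of a group. The Mcm helicase loads as a complex of 6 different subunits, and no cell held all 6 at 1 CPM or more. The highest number of the 9 S phase members detected in a cell was 7, in nascent HCs 5 and 10. Of the subunits, nascent HC 5 lacked Mcm3, and nascent HC 10 lacked Mcm5 and Mcm6.

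The median number of the 9 S phase members detected in a cell was 5 in OHC-like cells and in nascent HCs, 3 in failing SCs, 2.5 in WT_P60 SCs and 2 in WT_P30 OHCs. These medians were the same after thinning all cells to 4264780 counts. The number of all genes detected per cell was also highest in OHC-like cells and nascent HCs, and its part in these medians was not tested. In the fit with that number as a covariate, Mcm2 was no longer called in OHC-like cells against WT_P30 OHCs (adjusted p = 0.00619).

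**Figure D4:**
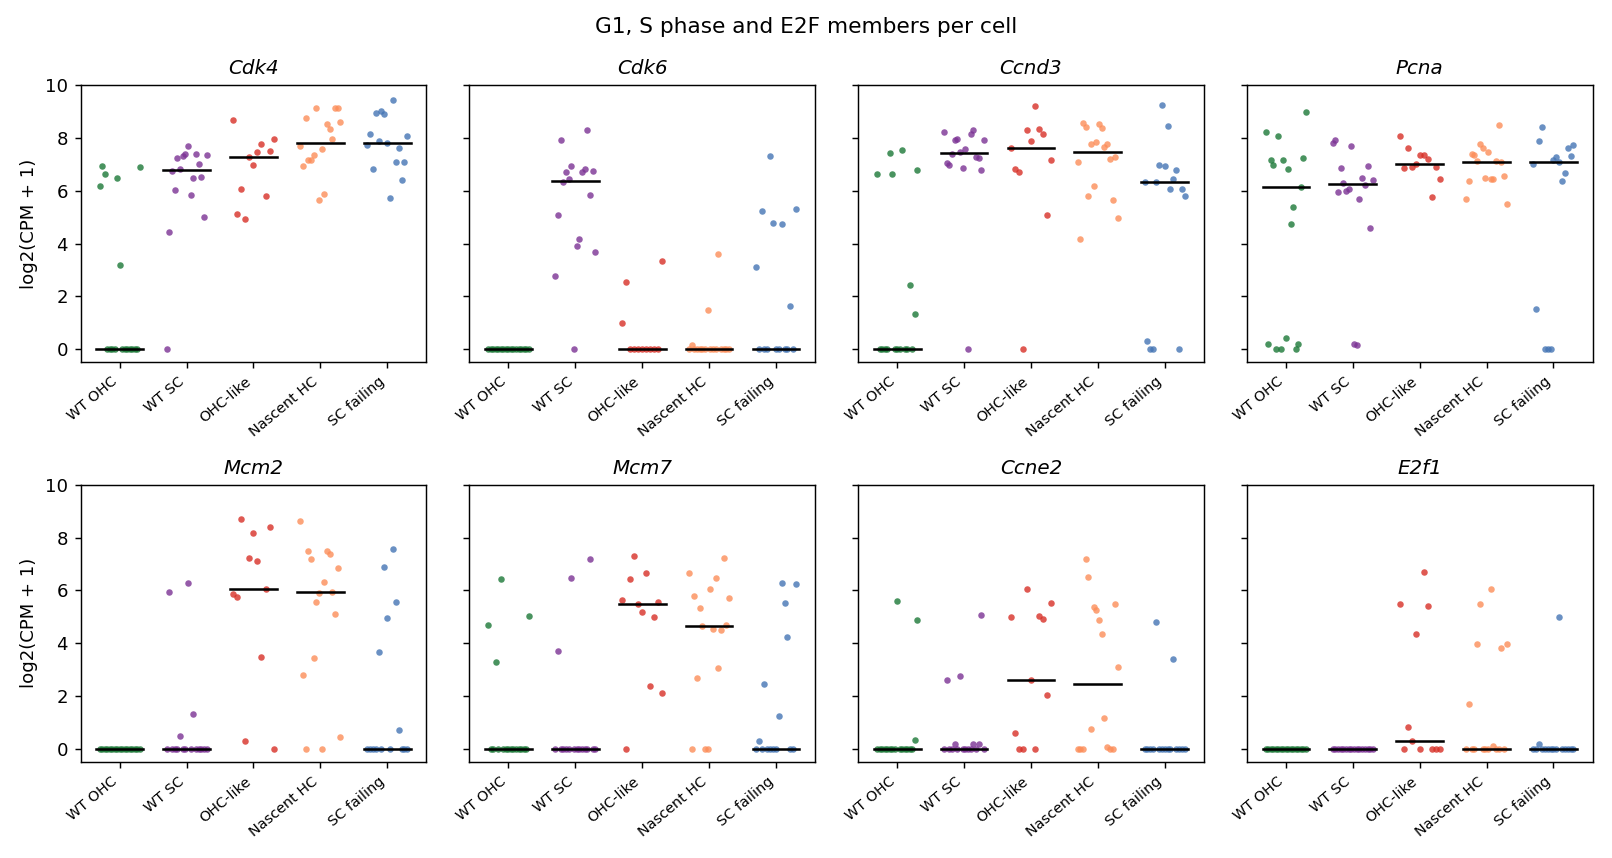
Expression of 8 G1, S phase and E2F members as log2(CPM + 1), 1 point per cell and a black line at the group median. Cdk4, Ccnd3 and Pcna are expressed in most P60 cells, Cdk6 is largely limited to WT_P60 SCs and some failing SCs, and Mcm2 and Mcm7 have medians above 0 in OHC-like cells and nascent HCs alone among the 5 groups.

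**Figure D5:**
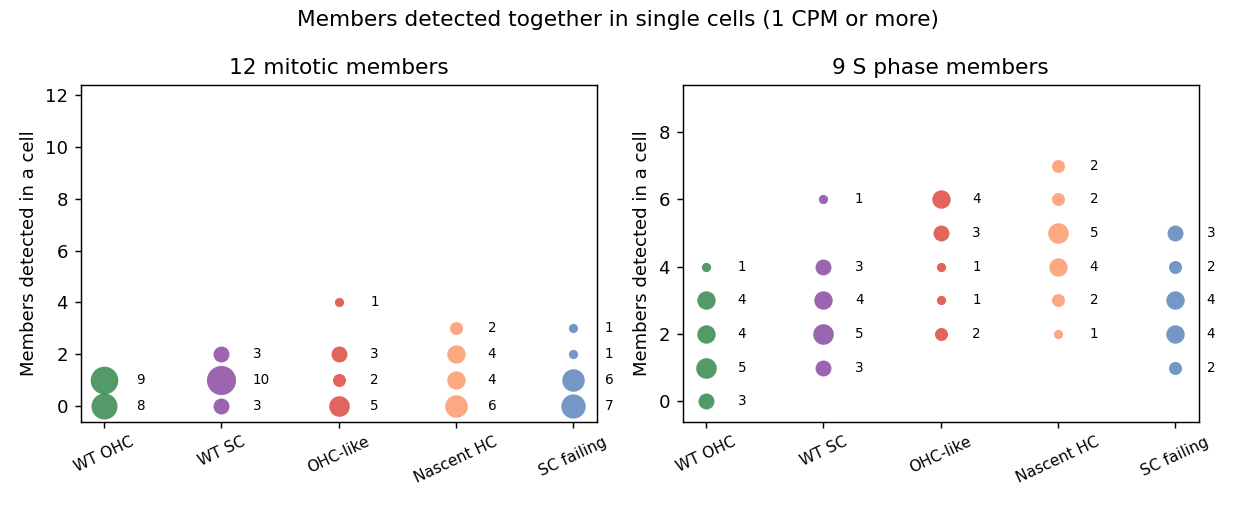
Number of the 12 mitotic members (left) and of the 9 S phase members (right) detected at 1 CPM or more in each cell, by cell group; the area of a disc and the number beside it give the cells. No cell holds more than 4 mitotic members, whereas the median cell holds 5 S phase members in OHC-like cells and nascent HCs.

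Among pocket proteins and E2Fs, E2f1, the activator of replication genes, had no count in either WT group. It was detected in 4 of 11 OHC-like cells, with a median of 0.225 and a highest value of 103 CPM, in 6 of 16 nascent HCs, with a median of 0 and a highest value of 65.4 CPM, and in 1 failing SC at 30.5 CPM. Most cells of each group were thus at or near 0, and the calls rested on 4 and 6 cells. Against WT_P60 SCs the level in OHC-like cells was at least 45.1-fold higher (adjusted p = 0.000422) and that in nascent HCs at least 23.0-fold higher (adjusted p = 0.000581). In nascent HCs the call held in 3 of 6 alternatives that gave a value, and in OHC-like cells in 5 of 7.

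Rb1, the founding pocket protein, was detected in 10 of 11 OHC-like cells, 13 of 16 nascent HCs, 11 of 15 failing SCs, 11 of 16 WT_P60 SCs and 9 of 17 WT_P30 OHCs, with medians of 80.9, 32.8, 59.4, 15.4 and 2.12 CPM and ranges that overlapped in all 5. Rbl2 was detected in 12 of 16 WT_P60 SCs, 7 of 11 OHC-like cells, 9 of 16 nascent HCs, 5 of 15 failing SCs and 3 of 17 WT_P30 OHCs. Rbl1 was detected in 1 to 4 cells of each group. E2f4, an E2F that acts with pocket proteins in resting cells, was detected in 14 of 16 nascent HCs, 8 of 11 OHC-like cells, 11 of 15 failing SCs, 10 of 16 WT_P60 SCs and 6 of 17 WT_P30 OHCs, and E2f3 in 1 to 3 cells of each group. None of Rb1, Rbl1, Rbl2 and E2f4 was called by edgeR in any of the 8 comparisons.

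RefSeq promoter windows (250 bases before to 50 after the gene start, GRCm38.p6) were searched on both strands for words resembling the E2F motif. The first search, TTTNNCGC, matched 10 of the 31 members that had a window and 5.93% of 27025 genes, with no match in E2f1 or Mcm2 and 1 in Cdk6. The second search was chosen after that result. It looked for TTCCCGC as well as the word TTGGCGC, and further for TTCGCGC, together with the word TTGCCGC, and it matched 12 of 31 members and 10.9% of all genes, with no match in E2f1, Mcm2 or Cdk6. Mcm7 matched in both. By the GENCODE annotation of the same build, 188 of the 300 bases of the E2f1 window lie in coding exons of E2f1, and whether the window holds the start used in these cells was not tested. These matches are a description of letters in these windows, and a window with no match says only that the letters are not in it.

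Between the mature WT cell types, 3 of 20 tested members were called in WT_P30 OHCs against WT_P60 SCs, all lower, namely Cdk6, Cdkn1a and Mcm2. In that comparison 15.3% of all genes were called and 10.3% were called lower, so members were called about as often as other genes. Of the called members, Mcm2 did not pass the filter in a fit of only the WT groups. In OHC-like cells against WT_P30 OHCs, 4 members were called, all higher in OHC-like cells: Cdkn1c, Mcm2, E2f1 and Cdk6, where 10.6% of all genes were called and 10.0% were called higher. None of these 4 passed the filter in a fit of only OHC-like cells and WT_P30 OHCs, so they entered the test through cells of other groups. That Cdk6 call rested on low values, since its highest value in an OHC-like cell was 9.17 CPM, and it was at least 3.08-fold higher. E2f1 was at least 42.8-fold higher in the same comparison.

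Among the 42 cells with ectopic Atoh1 and Ikzf2, edgeR and DESeq2 called 0 members. In OHC-like cells against failing SCs 1.03% of all genes were called, and 3 members had an unadjusted p under 0.05, as did 11.9% of all genes. In nascent HCs against failing SCs 1.35% of all genes were called and 2 members had such a p, as did 10.8% of all genes. In OHC-like cells against nascent HCs 0.0787% were called, and 1 member had such a p, as did 3.98% of all genes. In this last comparison Cdkn1c, Mcm2 and E2f1 all had an adjusted p of 1.

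Other call rules gave other numbers of members, again beside larger shares of all genes. With DESeq2, the tool of the study, 2 members were called in OHC-like cells, 3 in nascent HCs, 1 in failing SCs (E2f1) and 6 in WT_P30 OHCs, each against WT_P60 SCs, where it called 9.44%, 10.1%, 8.15% and 20.0% of all genes. It called 5 members in OHC-like cells against WT_P30 OHCs, where it called 14.5% of all genes. Among the 42 cells it called 3.46% of all genes in OHC-like cells and 3.28% in nascent HCs against failing SCs, and 1.32% between the converted groups. The E2f1 call in failing SCs rested on 1 cell, at 30.5 CPM, where WT_P60 SCs had no count.

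At an adjusted p of 0.05 and a log2 fold change of 1, edgeR called 3 members in OHC-like cells, 3 in nascent HCs, 2 in failing SCs and 6 in WT_P30 OHCs against WT_P60 SCs, where it called 13.4%, 13.8%, 9.8% and 24.9% of all genes. It called 5 members in OHC-like cells against WT_P30 OHCs, beside 19.1% of all genes. Among the 42 cells the same rule called 1 member, Cdkn1c, in nascent HCs against failing SCs, beside 4.79% of all genes, and 0 members in OHC-like cells against failing SCs or nascent HCs, beside 5.07% and 0.918%.

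The other cell cycle genes listed beside the members held 66 genes of licensing, mitosis, E2F partners, ubiquitin ligases, p53 targets and growth, of which 44 were tested. In OHC-like cells and in nascent HCs against WT_P60 SCs, 1 was called higher and 1 lower, the same pair both times, where 6.42% and 7.77% of all genes tested were called. Cdc25b, the phosphatase that activates Cdk1 at entry into mitosis, had no count in any of 16 WT_P60 SCs and was present in every converted cell, from 246 through 531 to 1166 CPM in OHC-like cells and from 201 through 482 to 1003 CPM in nascent HCs. The level in OHC-like cells was at least 1322-fold higher (adjusted p = 1.56e-08) and that in nascent HCs at least 1166-fold higher (adjusted p = 1.43e-08).

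In failing SCs, Cdc25b was detected in 8 of 15, with a highest value of 568 CPM, and it was called there too (adjusted p = 3.96e-07). In WT_P30 OHCs 4 of 17 cells held it, with a highest value of 154 CPM, and Cdc25b was called higher there than in WT_P60 SCs too. OHC-like cells lay above every WT cell of both types, and Cdc25b was called higher in them than in WT_P30 OHCs. Wee1, the kinase that opposes Cdc25b, was detected in 7 of 11 OHC-like cells, 9 of 16 nascent HCs and 9 of 15 failing SCs, in 1 of 16 WT_P60 SCs and in 0 of 17 WT_P30 OHCs. It was named after its values were seen. It was called higher in failing SCs against WT_P60 SCs, with a log2 fold change of 8.42 (SE 1.89, adjusted p = 0.00087). Wee1 and Cdc25b were rare in WT cells and passed the filter through the cells with ectopic Atoh1 and Ikzf2, where they are high. Their calls are thus a description and no separate support.

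Skp1a, a subunit of SCF ubiquitin ligases that is abundant in the cochlea, was called lower in both converted groups. It ran from 16689 through 22295 to 30038 CPM in WT_P60 SCs, from 48.4 through 3543 to 10777 CPM in OHC-like cells, and from 1782 through 3441 to 9237 CPM in nascent HCs, so neither converted group overlapped the WT_P60 SCs. The log2 fold changes were -2.40 (SE 0.40, adjusted p = 3.94e-06) and -2.44 (SE 0.35, adjusted p = 8.53e-08). Skp1a was not called in failing SCs or WT_P30 OHCs against WT_P60 SCs, nor in either converted group against failing SCs.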

How the data were processed

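The expression of 40 cell cycle genes was followed in 75 hand-picked mouse cochlear cells in 5 groups. Per the labels and the study's methods, the authors checked reads with FastQC 0.11.9, trimmed them with Trimmomatic 0.39, aligned them to GRCm38 (mm10) with HISAT2 2.1.0 and deposited raw counts per gene made with HTSeq 0.10.0. Counts were not normalized or pooled, and the annotation release and strand setting are not given in the sources used here. Besides the members for which this is given above, exons of Ccna2, Plk1, Ccnd1, Ccnd2, Ccnd3, Cdk2, Rb1 and Rbl2 overlap genes on the opposite strand. A row for WPRE, a viral element (0.0254% of counts), was left out. Without molecular identifiers, counts are reads, not molecules.

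Counts as deposited were tested with edgeR 4.0.16 in R 4.3.3 (TMM scaling, filterByExpr by group with a minimum count of 10, quasi-likelihood F-test, all 5 groups in one fit, Benjamini-Hochberg adjustment over 11443 genes). A call needed a log2 fold change beyond 2 and an adjusted p below 0.001. CPM were scaled by TMM, and detection (1 CPM) used unscaled totals. Shares of cells were compared with 2-sided Fisher's exact tests, adjusted over all genes in that test. TPM were computed from exon lengths of GENCODE M21, for 53292 genes. The script was tested on simulated data.

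Alternatives were DESeq2 1.42.0, its size factors in edgeR, no filter, fits of only the 2 groups compared, a covariate for library run or for the number of genes detected, a replicate block, thinning to 4264780 counts, a relaxed threshold, and leaving out OHC-like cell 4. A fit without 4 cells dominated by few genes, and a fit of the 42 cells without run, were added after seeing the data.

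All 40 members were named, in full where called and for inhibitors, D cyclins, Rb1 family members, Mki67, Top2a, Cdk1 and Ccnb1. Other cell cycle genes were named where called in OHC-like cells or nascent HCs against WT_P60 SCs, up to 3 per direction. Members and lists were chosen with earlier results of these data known.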

Additional observations from a re-analysis of the deposited data

How the results depend on the processing

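Counts of called members depended on the setting. In OHC-like cells against WT_P60 SCs, 2 members were called, against 1 with no filter on low counts, 1 with a replicate block, 1 after thinning, 0 in a fit of only these 2 groups (13 members left to test) and 0 by Fisher's exact test of detection. In nascent HCs against WT_P60 SCs, 1 was called with the number of genes detected as a covariate, against 2. In failing SCs against WT_P60 SCs, DESeq2 called 1 and the relaxed threshold 2, against 0. In WT_P30 OHCs against WT_P60 SCs, DESeq2 called 6, the relaxed threshold 6 and a fit with no filter 8, against 3. In OHC-like cells against WT_P30 OHCs, 0 were called in a fit of the 2 groups (8 members left to test), 1 with the number of genes detected and 2 by Fisher's exact test, against 4. Against failing SCs, the replicate block called 1 member in OHC-like cells and 1 in nascent HCs, and the relaxed threshold 1 in nascent HCs, against 0. At a limit of 10 CPM, 0 OHC-like cells, 0 nascent HCs and 0 failing SCs held 3 mitotic members, and 0 OHC-like cells held Mki67. Fewer members were tested in the 2-group fits; otherwise the cause was not tested. No alternative reversed the direction of a result, and leaving out OHC-like cell 4 or the 4 cells dominated by few genes left the counts of called members as they were, except 4 in place of 3 in WT_P30 OHCs against WT_P60 SCs without the 4 cells.

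Replicate numbers paired no cells: over 137 same-number pairs the median correlation of deviations was -0.00033, and 6 of 74 cells correlated best with their own number. The groups hold 11 to 17 cells, which sets the intervals of the shares of cells.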
